A study of Mus musculus with 42 samples.

Results

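The genes described here are 9 components of the signaling that photoreceptors and Müller glia use when the retina is stressed. They are the secreted factors Edn2, Lif, Cntf, Clcf1 and Fgf2 and the receptor chains Ednrb, Lifr, Il6st and Fgfr1. They were taken by symbol from the deposited expression table, which lists 25700 genes, and all 9 were found on 1 row each. Values are FPKM, read fragments scaled to gene length and to library size.

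In a stressed mouse retina some Müller glia, the radial glia that span the tissue, secrete leukemia inhibitory factor (Lif). It binds a receptor made of Lifr and Il6st (gp130), whose kinases activate the transcription factor Stat3. Photoreceptors release endothelin 2 (Edn2), which acts on the endothelin receptor Ednrb of Müller glia. The glia in turn raise Fgf2, basic fibroblast growth factor, which binds Fgfr1 and related receptors and is known to protect photoreceptors. Cntf and Clcf1 are further cytokines that signal through Il6st.

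RNA of 42 retinas of C57BL/6J mice, 1 retina per mouse, was sequenced in 7 groups of 6 mice. Normoxia mice breathed 21% oxygen for 11 weeks. In Zurich (ZH, normal pressure) mice were kept at 7% oxygen for 6 h (07-06h-ZH) or at 14% oxygen, where the exposure took 6 h (14-06h-ZH), 48 h (14-48h-ZH) or 11 weeks (14-11w-ZH). At the Jungfraujoch station (JFJ, 3450 m, about 65 kPa) mice breathed ambient air, labelled as about 14% oxygen, for 48 h (14-48h-JFJ) or 7 weeks (14-07w-JFJ). The mice were 9.5 weeks old at the start in Normoxia and 14-11w-ZH, 10 weeks in 07-06h-ZH, 9 to 11 weeks in 14-06h-ZH and 14-48h-ZH, and 9 weeks in both JFJ groups. Normoxia mice were therefore older at the end than the mice of 6 h and 48 h and than those of 14-07w-JFJ. All mice carried the same strain background and no transgene is named in the labels.

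The recovered libraries held 13986520 to 33595709 reads in genes. Rod markers summed to between 40710 and 45240 FPKM in Normoxia and between 43110 and 46480 FPKM in 07-06h-ZH, so rod RNA was abundant in the tissue. The sample codes fall into 5 series, of which Normoxia shares its series only with 14-11w-ZH, and 14-06h-ZH shares one with 14-48h-ZH. For all other comparisons hypoxia and code series cannot be told apart. Y-linked genes were expressed, with a mean of at least 1 FPKM, in 27 of 42 mice: every mouse of Normoxia and 14-11w-ZH, but only replicates 1 to 3 in each of the remaining groups. Lens marker genes summed to at least 1000 FPKM in 12 of 42 mice, in every group except 07-06h-ZH.

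RefSeq windows of 250 bases before a start site (GRCm38.p6) were found for 7 of the 9 genes and searched for motifs. For Lif the last bases of the window lie within the annotated gene and are left out of the 239 bases shown. The upstream sequences of Edn2 and Lif, the ligands of the loop with the largest ratios of mean FPKM after 6 h at 7% oxygen, are shown 5′ to 3′ with the motif matches in capitals. Both strands were searched for 4 motifs. The hypoxia response cores were ACGTG and GCGTG, the latter of which reads CACGC on the other strand. The AP-1 site was TGANTCA and the site of STAT factors was TTCNNNGAA. The Edn2 window lies at chr4:120160956-120161205 on the plus strand, directly before the annotated gene, and the Lif window at chr11:4257318-4257556, also on the plus strand and directly before its gene.
Edn2: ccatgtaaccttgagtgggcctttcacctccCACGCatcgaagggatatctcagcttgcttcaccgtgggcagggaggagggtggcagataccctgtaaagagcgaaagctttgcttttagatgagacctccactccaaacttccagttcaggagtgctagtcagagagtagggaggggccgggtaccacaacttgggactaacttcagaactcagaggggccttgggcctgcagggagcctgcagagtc
Lif: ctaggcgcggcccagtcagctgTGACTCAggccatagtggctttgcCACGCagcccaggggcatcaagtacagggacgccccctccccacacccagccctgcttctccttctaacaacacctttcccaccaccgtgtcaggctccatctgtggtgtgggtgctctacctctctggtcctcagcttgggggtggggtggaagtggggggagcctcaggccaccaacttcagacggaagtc

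The Edn2 window held 1 GCGTG core and the Lif window held 1 GCGTG core and 1 AP-1 site. Of 32536 promoter windows of the same table, 28.3% held GCGTG and 6.73% held TGANTCA, so a GCGTG core was common. GCGTG was also in windows of Fgf2, Ednrb, Lifr and Cntf, and TGANTCA in that of Cntf. ACGTG (16.7% of windows) and TTCNNNGAA (7.04%) were in none of the windows of the 7 genes that had one. These matches are letters only and no binding was measured.

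Edn2 rose at 7% oxygen, where every mouse was above the Normoxia range (limma on log2(FPKM + 0.1), 12 mice a comparison, with p-values adjusted by the Benjamini-Hochberg method over all genes tested). The gene is on chromosome 4 (120161206 to 120167360, plus strand, GRCm38). In Normoxia the mice had 2.05, 2.89, 1.46, 2.44, 2.44 and 3.34 FPKM. In 07-06h-ZH they had 10.8, 12.8, 7.995, 7.18, 11.7 and 7.35 FPKM, and the ranges did not overlap. The mean rose from 2.44 ± 0.651 to 9.64 ± 2.44 FPKM (SD, n = 6), which is a ratio of 3.96, and the log2 fold change was 1.95 (SE 0.19, adjusted p = 6.57e-07). A call at this adjusted p together with a log2 fold change of at least 1 was made for 4.20% of the 16962 genes tested, and ranges did not overlap for 21.9%. The Edn2 call held in all 13 alternatives and without each mouse in turn. Red blood cell genes also summed to more in 07-06h-ZH, 87.6 to 1877 FPKM against 23.4 to 555 FPKM in Normoxia, and pigment cell markers to 144 to 533 against 13.9 to 467 FPKM. Of 9 Müller glia markers 1 rose and 4 fell, where 18.0% of all genes rose and 24.0% fell. The Müller glia markers summed to 3547 to 3889 against 3361 to 3680 FPKM. Astrocyte markers, Gfap among them, summed to 30.2 to 50.6 against 19.4 to 21.8 FPKM and endothelial markers to 61.2 to 74.0 against 75.2 to 80.5 FPKM, both without overlap. Of 4 astrocyte markers 2 rose and none fell, and Gfap alone was 12.5 to 32.2 against 5.41 to 6.81 FPKM. Of 7 endothelial markers 2 rose and 2 fell. The part of these cells in the result was not tested, and in whole retina more cells of a type and more RNA per cell cannot be told apart.

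At 14% oxygen and normal pressure Edn2 did not pass the test over Normoxia. After 6 h the mice had 2.94, 2.77, 2.27, 8.03, 4.56 and 2.33 FPKM, so 2 of 6 mice exceeded the highest Normoxia mouse (log2 fold change 0.52, SE 0.30, adjusted p = 0.213). After 48 h the range was 1.51 to 2.85 FPKM (median 2.44) and after 11 weeks 1.66 to 3.83 FPKM (median 2.70). Their log2 fold changes of -0.06 (SE 0.18) and 0.14 (SE 0.20) over Normoxia did not pass the test. The 2 high mice of 14-06h-ZH, replicates 4 and 5, had no Y-linked expression, like replicate 6 with 2.33 FPKM of Edn2. Replicates 4 and 5 also had the highest Gfap of their group, 15.1 and 12.0 FPKM. Gfap encodes the intermediate filament that reactive Müller glia accumulate. The values here are RNA. The paper stained GFAP protein in sections of all groups and reported no difference from normoxic controls.

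At high altitude Edn2 was split within the group. After 48 h at JFJ replicates 1 to 3 had 3.59, 3.45 and 3.58 FPKM, whereas replicates 4 to 6 had 9.53, 9.53 and 8.61 FPKM. All 6 mice were above the highest Normoxia mouse (ranges did not overlap for 3.60% of genes), and the log2 fold change was 1.24 (SE 0.32, adjusted p = 0.0465; 5.33% of genes were called in either direction and 0.246% also with a log2 fold change of at least 1). The difference was 1.30 over 14-48h-ZH (SE 0.31, adjusted p = 0.00606), again without overlap (20.4% of genes, while 1.32% passed with a log2 fold change of at least 1). The high mice were those without Y-linked expression. They also had 19.0 to 22.6 FPKM of Gfap against 7.48 to 10.2 in the other mice, and 5.07 to 6.82 against 3.30 to 3.67 FPKM of Socs3, a feedback inhibitor that Stat3 induces. Within the group the difference between mice without and with Y-linked expression was 1.36 on the log2 scale (exact permutation test, two-sided, p = 0.1, the smallest that 3 against 3 mice allow). Pigment epithelium and melanocyte markers summed to 42.2 to 380.0 FPKM in the mice without and 348 to 773 FPKM in the mice with Y-linked expression. The part of either in the Edn2 values was not tested. The call over Normoxia was lost without replicate 1, 2, 3, 4, 5 or 6 of Normoxia and without replicate 4, 5 or 6 of 14-48h-JFJ (adjusted p between 0.0602 and 0.0901). In edgeR the log2 fold change over Normoxia was 1.10 (adjusted p = 0.264). That fit lacked replicates 3 and 5 of Normoxia and replicate 4 of 14-48h-JFJ, a mouse with high Edn2. In limma without replicate 4 of 14-48h-JFJ alone the value was also 1.10. With mice that express Y-linked genes only, the log2 fold change was 0.56 over Normoxia (adjusted p = 0.204) and 0.69 over 14-48h-ZH (adjusted p = 0.157).

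After 7 weeks at JFJ Edn2 ranged from 2.52 to 5.09 FPKM with a median of 3.36, and 3 of 6 mice exceeded every Normoxia mouse. The log2 fold change of 0.52 (SE 0.19) did not pass the test (adjusted p = 0.164). The mice without Y-linked expression again had the higher values, 3.61 to 5.09 against 2.52 to 3.12 FPKM (exact permutation test, two-sided, p = 0.1, the smallest possible). This order was not seen in 07-06h-ZH, where they had 7.18 to 11.7 against 7.995 to 12.8 FPKM.

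**Figure D1:**
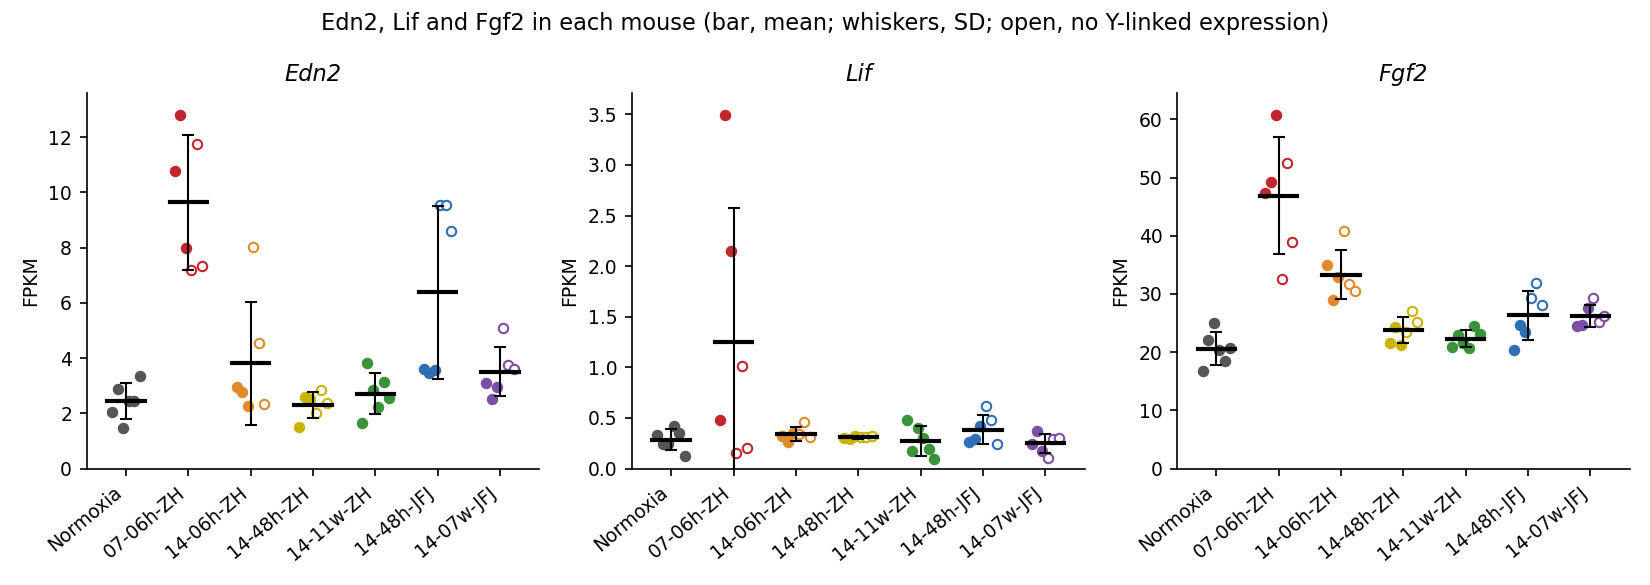
FPKM of Edn2, Lif and Fgf2 (y axes, from 0) in each of 42 mice by group; bars are group means, whiskers the SD (cut at 0 for Lif) and open points mice without Y-linked expression. Edn2 is 7.18 to 12.8 FPKM in 07-06h-ZH and splits into 3 low and 3 high mice in 14-48h-JFJ, Lif exceeds 1 FPKM in 3 mice of 07-06h-ZH, and Fgf2 is highest in 07-06h-ZH and 14-06h-ZH.

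Lif, the cytokine that starts the glial arm, was scarce. Its gene lies on chromosome 11 (4257557 to 4272514, plus strand). Outside 07-06h-ZH it ranged from 0.0966 to 0.613 FPKM in 36 mice, and the recovered libraries of all groups held 4 to 183 reads of it, with a median of 15.5. In 07-06h-ZH replicates 2, 3 and 5 had 3.496, 2.15 and 1.02 FPKM, above all 36 other mice, while replicates 1, 4 and 6 had 0.482, 0.155 and 0.202 FPKM. The response was thus uneven, with 3 of 6 mice above all others and 2 below the Normoxia median of 0.287 FPKM. The mean was 4.37 times that of Normoxia, but the log2 fold change of 1.20 (SE 0.58) did not pass the test (adjusted p = 0.117). The value depended on the setting and on the mice used. It was 0.62 with a pseudocount of 1, 0.79 without replicate 2 of 07-06h-ZH and 2.43 in edgeR (adjusted p = 0.0829), and none of these passed. The edgeR fit lacked replicates 3 and 5 of Normoxia and replicate 4 of 07-06h-ZH, the mouse lowest in Lif of its group. In limma the difference passed without replicate 4 or replicate 6 of 07-06h-ZH (1.55 and 1.50, adjusted p = 0.0319 and 0.0468). It also passed with mice expressing Y-linked genes only (2.16, adjusted p = 0.00389) and in the fit of all 7 groups (1.20, adjusted p = 0.0078). The 3 mice high in Lif had the highest Socs3 of the group, 24.0, 14.0 and 13.5 FPKM against 11.1, 6.29 and 5.63 in the others. In the other 5 hypoxic groups the log2 fold changes of Lif over Normoxia lay between -0.15 and 0.32 and none passed the test. Because 0.1 was added before taking logs, these values understate changes of so low a gene.

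**Figure D2:**
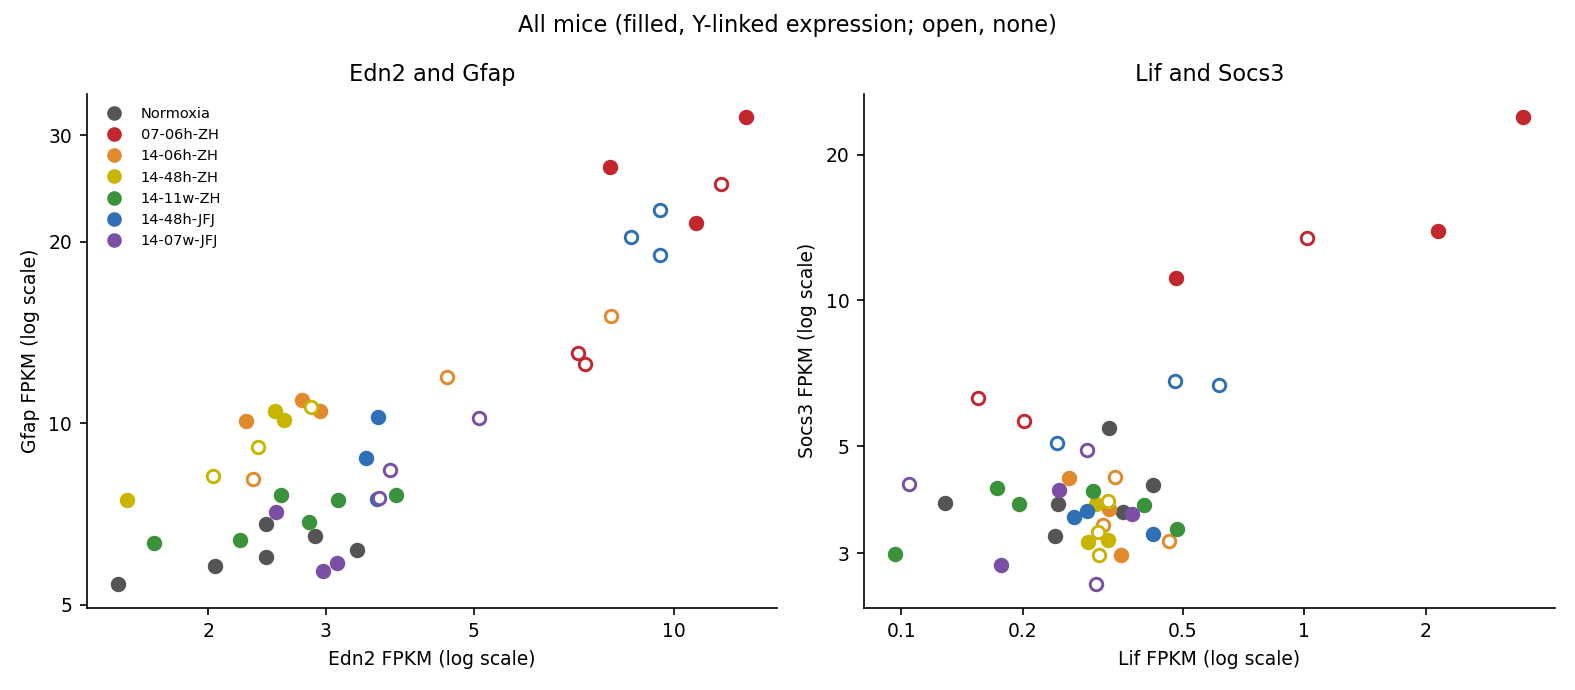
Edn2 against Gfap and Lif against Socs3 in 42 mice (FPKM, log scales); colours give the group and open points mice without Y-linked expression. The mice with at least 7.18 FPKM of Edn2 have 12.5 to 32.2 FPKM of Gfap, and the 3 mice above 1 FPKM of Lif have 13.5 to 24.0 FPKM of Socs3.

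Fgf2 rose at 6 h at both oxygen levels and returned towards Normoxia at 14% oxygen. Its gene is on chromosome 3 (37348346 to 37410108, plus strand). Normoxia mice had 16.8, 22.1, 24.95, 20.45, 18.4 and 20.8 FPKM. After 6 h at 7% oxygen they had 47.4, 49.3, 60.8, 32.6, 52.5 and 38.9 FPKM, and after 6 h at 14% oxygen 35.0, 29.0, 33.0, 40.8, 31.8 and 30.5 FPKM. Neither range overlapped Normoxia (21.9% and 18.2% of genes did so). The means were 46.9 ± 10.0 and 33.3 ± 4.19 against 20.6 ± 2.85 FPKM (SD, n = 6). The log2 fold changes were 1.17 (SE 0.14, adjusted p = 1.42e-05) and 0.70 (SE 0.09, adjusted p = 4.43e-05), and both calls held in all 13 alternatives and without each mouse in turn. The level at 7% was above that at 14% oxygen by 0.47 on the log2 scale (SE 0.13, adjusted p = 0.0115).

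After 48 h at 14% oxygen Fgf2 ranged from 21.2 to 27.1 FPKM (median 23.9). It had fallen from the 6 h level without overlap (1.91% of genes), by 0.48 on the log2 scale (SE 0.08, adjusted p = 0.00532), and was 0.22 above Normoxia (SE 0.08, adjusted p = 0.0595). That difference from Normoxia passed in 4 of 13 alternatives. Among them were median-of-ratios scaling (0.30, adjusted p = 0.011) and normalized counts (0.28, adjusted p = 0.00802). It also passed in edgeR, which lacked replicates 3 and 5 of Normoxia (0.33, adjusted p = 0.00364). The 6 h and 48 h groups at 14% oxygen share a code series. Without mice high in lens markers the fall was 0.39 and no longer passed (adjusted p = 0.155), and with mice expressing Y-linked genes only it was 0.53 (adjusted p = 0.472). After 11 weeks Fgf2 lay between 20.8 and 24.5 FPKM (log2 fold change 0.12, SE 0.08, adjusted p = 0.416).

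At JFJ Fgf2 was 20.46, 24.7, 23.5, 29.4, 31.9 and 28.2 FPKM after 48 h, where the mice with high Edn2 also had the highest Fgf2 (log2 fold change over Normoxia 0.35, SE 0.11, adjusted p = 0.0784). After 7 weeks it was 24.6 to 29.3 FPKM (median 25.7), which is 0.36 above Normoxia on the log2 scale (SE 0.08, adjusted p = 0.0346; 2.04% of genes were called in either direction). That call was lost without replicate 4, 5 or 6 of Normoxia and without replicate 1, 2, 4, 5 or 6 of 14-07w-JFJ (adjusted p between 0.0506 and 0.0781). It was also lost with mice expressing Y-linked genes only (0.32, adjusted p = 0.175). Over 14-11w-ZH the difference was 0.23 (SE 0.06, adjusted p = 0.0497) with no overlap (2.09% of genes), and 12 of 13 alternatives lost that call. Fgf2 overlaps Nudt6 on the opposite strand by 5199 bases, and whether the counting used strand is not stated, so reads of both genes may be mixed. The annotated transcript Gm43439 on the same strand shares 56521 bases with Fgf2, so reads may be shared there as well.

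Cntf, a survival factor for neurons that was named after the ciliary ganglion, did not pass the test over Normoxia in any group. It lies on chromosome 19 (12763660 to 12765632, minus strand), wholly within Zfp91 on the same strand, so its reads are uncertain. It ranged from 3.61 to 14.2 FPKM over 42 mice. In the 12 mice high in lens markers it had a median of 12.0 FPKM (3.61 to 14.2), in the other 30 mice 5.41 FPKM (3.82 to 10.4). Zfp91 itself ranged only from 38.3 to 52.3 FPKM. At 6 h Cntf was lower at 7% than at 14% oxygen by 0.66 on the log2 scale (SE 0.25, adjusted p = 0.0474), where 0 and 3 mice were high in lens markers. Without the latter the difference was -0.09 (adjusted p = 0.669). It was also lost without replicate 1, 2, 3, 4 or 5 of 07-06h-ZH and without replicate 3, 4 or 6 of 14-06h-ZH (adjusted p between 0.0686 and 0.0959).

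**Figure D3:**
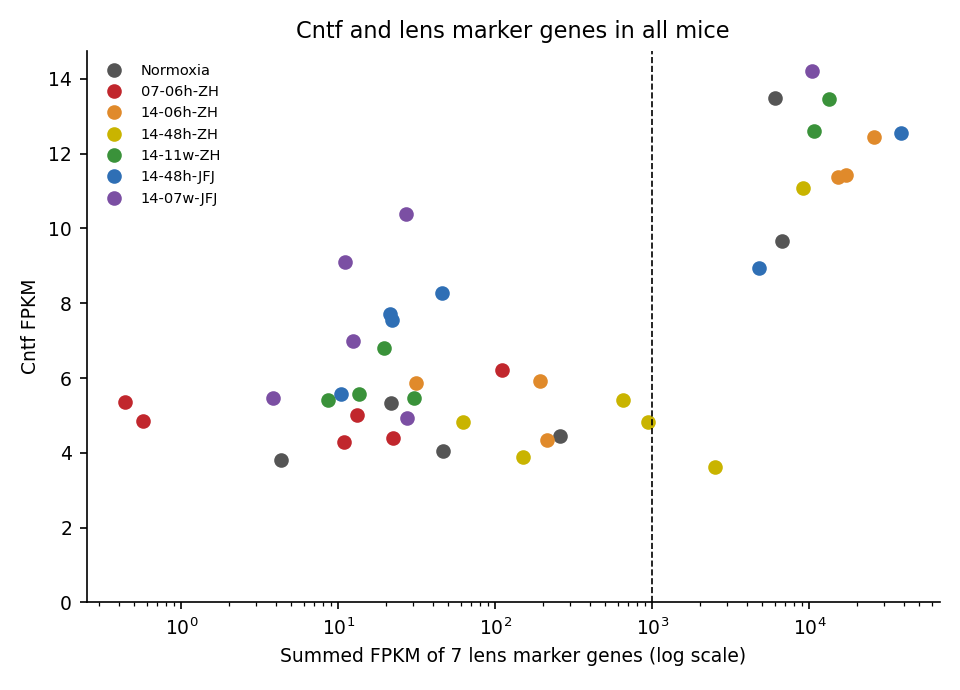
Cntf FPKM (y axis, from 0) against the summed FPKM of 7 lens marker genes (x axis, log scale) in 42 mice, coloured by group; the dashed line marks 1000 FPKM. Of the 12 mice right of the line all but 1 lie at or above 8.93 FPKM of Cntf.

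Clcf1, the cardiotrophin-like cytokine, moved in opposite directions at the 2 oxygen levels. It lies on chromosome 19 (4214238 to 4223490, plus strand), where the annotated gene AC109138.7 on the same strand covers 9134 of its bases, so reads may be shared. Normoxia mice ranged from 2.30 to 3.60 FPKM (median 2.98), 07-06h-ZH from 2.92 to 4.76 (median 3.75) and 14-06h-ZH from 1.75 to 2.58 (median 2.07). The log2 fold changes over Normoxia were 0.37 (SE 0.14, adjusted p = 0.0438) and -0.45 (SE 0.13, adjusted p = 0.0131). The 6 h groups did not overlap (24.3% of genes) and differed by 0.82 (SE 0.14, adjusted p = 0.000114). The rise at 7% was lost without replicate 1, 2, 4 or 5 of Normoxia and without replicate 2, 3, 4 or 6 of 07-06h-ZH (adjusted p between 0.0616 and 0.104) and in 7 of 13 alternatives, and the fall at 14% in 4 of 13 (adjusted p between 0.0601 and 0.0789). After 48 h Clcf1 was higher at JFJ, with 2.78 to 3.58 FPKM, than in Zurich, with 1.98 to 2.98 FPKM (log2 difference 0.33, SE 0.10, adjusted p = 0.0162).

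Among the receptors, Lifr fell at 7% oxygen. Its position is chromosome 15 (7090614 to 7197489, plus strand). Normoxia mice had 21.3, 23.3, 22.6, 20.9, 21.2 and 23.1 FPKM and 07-06h-ZH mice 15.1, 14.7, 17.5, 15.7, 17.2 and 15.3 FPKM, without overlap (21.9% of genes). The log2 fold change was -0.47 (SE 0.06, adjusted p = 7.88e-06) and held in all 13 alternatives and without each mouse. At 14% oxygen for 6 h Lifr was 20.6 to 23.8 FPKM, which overlapped Normoxia, and the groups of 6 h differed by 0.48 (adjusted p = 6.59e-06). After 11 weeks at 14% it was 18.3 to 21.1 FPKM, and its log2 fold change, -0.17 (SE 0.05), just missed the test (adjusted p = 0.0513). It passed without replicate 1 of Normoxia (adjusted p = 0.0462), without replicate 5 of 14-11w-ZH (0.0463) and in 4 of 11 alternatives.

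Il6st, the shared signal-transducing chain gp130, moved the opposite way at the 2 oxygen levels. Its position is chromosome 13 (112464070 to 112510086, plus strand). Normoxia mice had 42.6, 39.8, 42.9, 43.5, 44.5 and 42.8 FPKM. At 7% for 6 h they had 39.4, 40.1, 41.0, 31.6, 37.4 and 33.1 FPKM, and at 14% for 6 h 45.4, 51.6, 52.3, 54.8, 48.3 and 50.1 FPKM. Il6st was thus lower at 7% oxygen (log2 fold change -0.21, SE 0.06, adjusted p = 0.0132) and higher at 14% (0.24, SE 0.05, adjusted p = 0.000652), and the 6 h groups did not overlap (24.3% of genes). It was still higher after 48 h at 14%, with 44.3 to 52.9 FPKM (0.23, SE 0.04, adjusted p = 0.000652), but not after 11 weeks (36.7 to 41.8 FPKM, adjusted p = 0.0822) or at JFJ (37.7 to 43.1 FPKM after 48 h). Between JFJ and Zurich at 48 h it differed by -0.31 (SE 0.05, adjusted p = 6.42e-05) without overlap (20.4% of genes). With mice expressing Y-linked genes only, the difference at 7% was -0.09 (adjusted p = 0.211), and in edgeR it was -0.10 (adjusted p = 0.198). The edgeR fit lacked replicates 3 and 5 of Normoxia and replicate 4 of 07-06h-ZH, which had 31.6 FPKM. Without mice high in lens markers the rise at 14% for 6 h was 0.19 (adjusted p = 0.0595).

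Ednrb, the receptor for Edn2, was low and varied within groups. Its position is chromosome 14 (103814625 to 103844402, minus strand). Normoxia mice ranged from 1.67 to 2.83 FPKM, 07-06h-ZH from 1.01 to 2.70 and 14-06h-ZH from 1.45 to 1.87 FPKM. The last group was lower than Normoxia by 0.39 on the log2 scale (SE 0.13, adjusted p = 0.026), a call that 6 of 13 alternatives lost. It was also lost without replicate 5 or 6 of Normoxia and without replicate 1 or 3 of 14-06h-ZH (adjusted p between 0.0541 and 0.0651). No other group passed, and the largest mean was that of 14-07w-JFJ, 2.76 ± 0.917 FPKM (SD, n = 6). There 4 mice had 2.73 to 3.60 FPKM with pigment cell markers at 628 to 783 FPKM, and 2 mice had 1.34 and 2.01 FPKM with these markers at 67.7 and 71.1 FPKM. In 07-06h-ZH the order was the other way. Replicates 1 to 3 had 2.50 to 2.70 FPKM of Ednrb with these markers at 144 to 217 FPKM. Replicates 4 to 6 had 1.01 to 2.285 FPKM of Ednrb with these markers at 287 to 533 FPKM. Melanocytes are also known to use Ednrb, and their part in these values was not tested.

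Fgfr1 is a receptor tyrosine kinase for Fgf2. Its position is chromosome 8 (25513654 to 25575718, plus strand). It ranged from 12.0 to 19.5 FPKM in Normoxia, 15.3 to 19.6 in 07-06h-ZH and 14.9 to 21.1 in 14-06h-ZH, where it passed over Normoxia (log2 fold change 0.32, SE 0.12, adjusted p = 0.0483). That call was lost in 7 of 13 alternatives, and without replicate 2, 3, 5 or 6 of Normoxia or replicate 2, 3, 4, 5 or 6 of 14-06h-ZH (adjusted p between 0.056 and 0.106). At 7% oxygen the log2 fold change was 0.20 (SE 0.11, adjusted p = 0.14). It passed without mice high in lens markers (0.36, adjusted p = 0.00446) and without replicate 1 of Normoxia, one of those mice (0.28, adjusted p = 0.028). After 48 h at JFJ it was 0.24 (adjusted p = 0.164), and it passed in the same settings (0.36 and 0.32, adjusted p = 0.0266 and 0.0309). At 48 h it was higher at JFJ than in Zurich, 15.97 to 18.8 against 10.8 to 18.1 FPKM (0.27, SE 0.09, adjusted p = 0.0276).

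**Figure D4:**
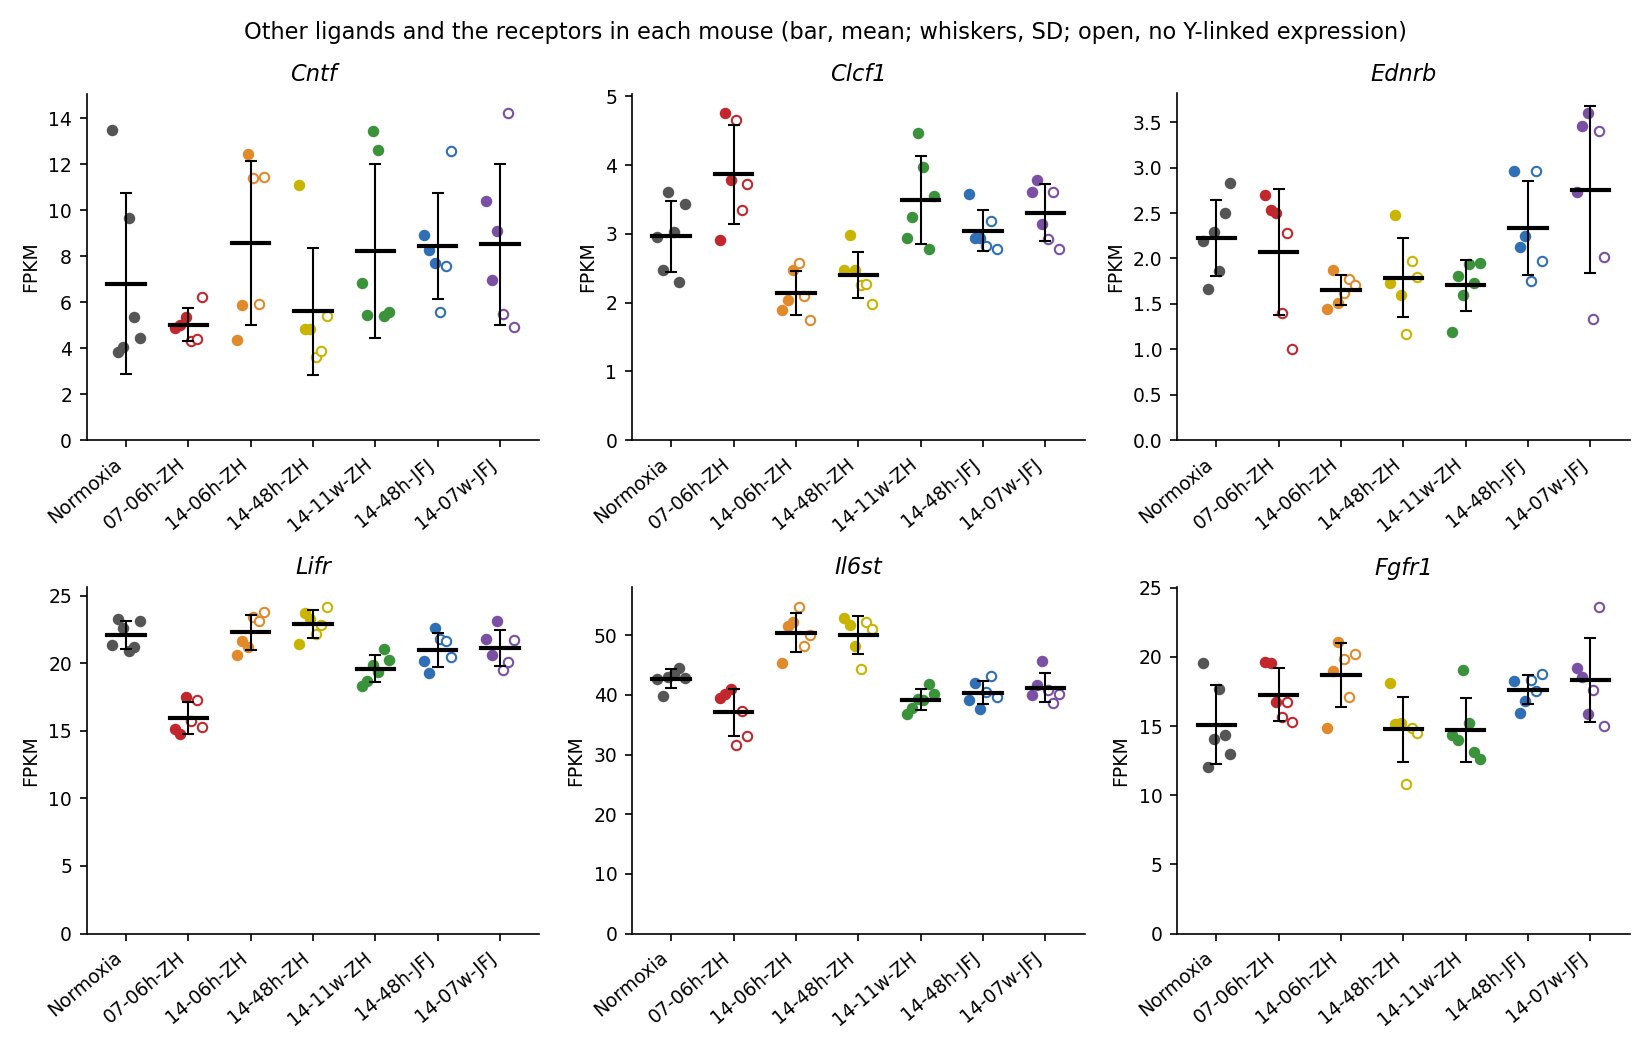
FPKM of Cntf, Clcf1, Ednrb, Lifr, Il6st and Fgfr1 (y axes, from 0) in each of 42 mice by group; bars are group means, whiskers the SD and open points mice without Y-linked expression. Lifr is lowest in 07-06h-ZH (14.7 to 17.5 FPKM), Il6st is highest in 14-06h-ZH and 14-48h-ZH, and Cntf spreads from 3.61 to 14.2 FPKM within groups.

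Counted together, 5 of the 9 genes passed the test after 6 h at 7% oxygen (Clcf1, Edn2 and Fgf2 higher, Il6st and Lifr lower), where 42% of all genes did, 18.0% higher and 24.0% lower. After 6 h at 14% oxygen 5 of 9 passed (Fgf2, Fgfr1 and Il6st higher, Clcf1 and Ednrb lower) against 34.3% of all genes, 9.54% higher and 24.8% lower. After 48 h at 14% oxygen only Il6st passed (36.2% of all genes, 9.48% higher). After 48 h at JFJ only Edn2 passed (2.67% of all genes higher) and after 7 weeks at JFJ only Fgf2 (1.47% higher). After 11 weeks at 14% oxygen none of the 9 passed in limma or in edgeR, 3 had an unadjusted p under 0.05, and 3.96% of all genes passed. Counts over 9 genes are too small to set these shares apart from those of all genes. The 6 comparisons share the 6 Normoxia mice.

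Directly between hypoxic groups, 6 of 9 genes differed between 7% and 14% oxygen at 6 h (3 higher and 3 lower). Of all genes 45.5% differed, 25.8% higher and 19.7% lower, and 3.95% differed with a log2 fold change of at least 1. With mice expressing Y-linked genes only, 3 against 3, Edn2 still passed and Clcf1, Fgf2, Il6st and Lifr did not (adjusted p between 0.0595 and 0.125). Their differences were 0.79 for Clcf1, 0.69 for Fgf2, -0.31 for Il6st and -0.42 for Lifr. Cntf was -0.42 (adjusted p = 0.74). Between 48 h and 6 h at 14% oxygen 1 of 9 differed (1.67% of all genes, 0.932% lower). Between JFJ and Zurich at 48 h 5 of 9 differed, 3 higher and 2 lower (39.6% of all genes, 30.9% higher and 8.66% lower). Between the long exposures 1 of 9 differed (1.54% of all genes, 1.07% higher). In the comparison of JFJ and Zurich at 48 h the median of all genes was 0.11 and 78.1% of called genes were higher, against 0.02 and 50.0% when FPKM were rescaled by median-of-ratios factors. The differences of Clcf1 and Fgfr1 were 0.33 and 0.27 before rescaling and no longer passed after it (0.23 and 0.16, adjusted p = 0.08 and 0.191).

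**Figure D5:**
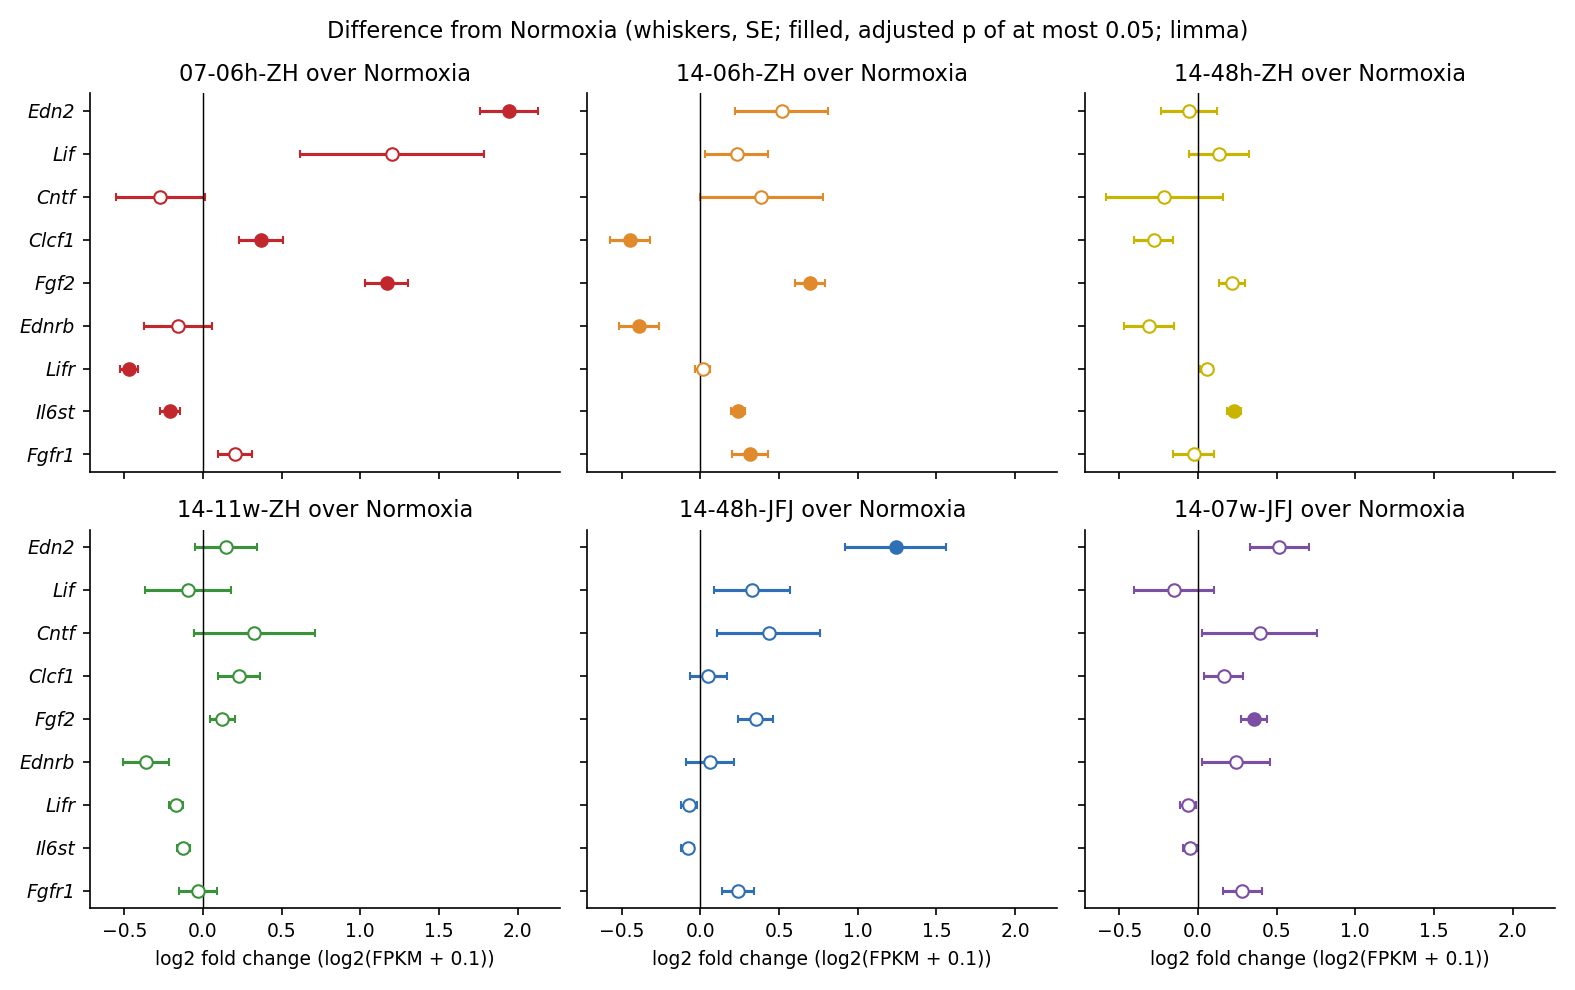
Log2 fold change over Normoxia of the 9 genes in the 6 hypoxic groups (x axis, log2(FPKM + 0.1) scale); whiskers are the SE and filled points have an adjusted p of at most 0.05 in limma. Edn2 is 1.95 in 07-06h-ZH and 1.24 in 14-48h-JFJ, Fgf2 is 1.17 and 0.70 at 6 h, and no point is filled in 14-11w-ZH.

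Ordering the 7 groups by mean placed 07-06h-ZH first for Edn2, Lif, Clcf1 and Fgf2 and last for Lifr, Il6st and Cntf. Neighbours in these orders were compared by exact permutation tests of 12 mice (two-sided, 54 pairs, 924 arrangements). None of the pairs had an adjusted p of 0.05 or less. The smallest p that 6 against 6 mice allow, 0.00216, was reached for Lifr between 14-11w-ZH and 07-06h-ZH and came to 0.117 after adjustment, so a single pair could not pass and the outcome does not show that neighbours were alike. In limma neighbours such as Il6st in 14-48h-ZH and Normoxia (adjusted p = 0.000652) and Fgf2 in 07-06h-ZH and 14-06h-ZH (adjusted p = 0.0115) did differ. Within 07-06h-ZH replicates 4 and 6 had the lowest Edn2, Lif, Fgf2, Ednrb and Il6st, and also the lowest Gfap (13.1 and 12.5 FPKM) and Socs3.

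The arm that Lif and its receptors feed, Stat3 with its feedback regulators and known target genes, was followed with a list of 20 genes. After 6 h at 7% oxygen 12 rose and 2 fell (of all genes 18.0% rose and 24.0% fell), and the median log2 fold change was 1.28 against -0.03 over all genes. Stat3 itself rose by 0.74 (adjusted p = 3.43e-08), the metallothioneins Mt1 and Mt2 by 2.51 and 3.19 (adjusted p = 5.24e-08 and 8.66e-08) and Lcn2, an acute phase protein, by 2.61 (adjusted p = 1.39e-07). Osmr, the receptor chain for oncostatin M, rose by 1.27 (adjusted p = 4.25e-05) and is on this list and on that of the receptors. In the comparison of 7% with 14% oxygen at 6 h 12 of the 20 were higher and 1 was lower (25.8% and 19.7% of all genes), with a median of 0.99 against 0.03 over all genes.

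After 6 h and 48 h at 14% oxygen in Zurich the share of the list that passed over Normoxia was near that of all genes. After 6 h 2 rose and 5 fell (median 0.11 against -0.05 over all genes, of which 9.54% rose and 24.8% fell), with Gfap up by 0.83 (adjusted p = 3.22e-05) and Junb, an AP-1 subunit, down by 1.27 (log2 fold change -1.27, adjusted p = 4.71e-05). After 48 h 1 rose and 6 fell (9.48% of all genes rose and 36.2% passed in either direction), led by the transcription factor Cebpd (log2 fold change -1.49, adjusted p = 9.07e-06). After 11 weeks 1 rose, Lcn2 (0.65, adjusted p = 0.00616), and 2 fell (3.96% of all genes passed). At JFJ 2 rose and 1 fell over Normoxia after 48 h (5.33% of all genes passed), Lcn2 (0.95, adjusted p = 0.000127) and Gfap (1.13, adjusted p = 0.0396) being higher, and none passed after 7 weeks. Between JFJ and Zurich at 48 h 11 of 20 were higher and none lower (30.9% and 8.66% of all genes; median 0.52 against 0.11 over all genes), led by Cebpd (1.93, adjusted p = 2.13e-07). In that comparison 7 of 8 pigment cell markers and 5 of 5 red blood cell genes were also higher. Of 7 rod markers 1 was higher and 3 lower, and of 9 Müller glia markers 1 was higher and 5 lower. Rod markers summed to 35070 to 41180 FPKM at JFJ against 48230 to 52520 FPKM in Zurich. Of all called genes 78.1% were higher, against 50.0% after median-of-ratios rescaling, for which the list was not counted. The part of these differences in the result was not tested.

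Of 9 other receptors and kinases of the gp130 family 3 rose at 7% oxygen (Osmr, Cntfr by 0.28 and Jak1 by 0.09) and none fell, where 18.0% of all genes rose and 24.0% fell. Cntfr, the receptor chain specific for Cntf, fell after 48 h at JFJ (log2 fold change -0.19, adjusted p = 0.0281). Of 7 further gp130 cytokines 3 had enough signal to be tested, and Ctf1, cardiotrophin 1, was lower at 7% oxygen (-0.49, adjusted p = 0.00885). The endothelin pathway gave 6 tested genes, of which the ligand Edn3 rose (1.51, adjusted p = 0.00199) and Ecel1, an enzyme of the endothelin-converting family, fell (-0.88, adjusted p = 0.029) at 7% oxygen. Of all genes 18.0% rose and 24.0% fell there. Edn3 was also higher at JFJ than in Zurich at 48 h (1.33, adjusted p = 0.00544), where 30.9% of all genes were higher. Pigment cell markers were higher in both comparisons, 3 of 8 at 7% oxygen and 7 of 8 at JFJ, and none was lower. Their part in the Edn3 values was not tested.

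In the FGF family Fgf2 stood beside mixed changes. Of 13 other FGF ligands tested at 7% oxygen 3 rose and 3 fell (18.0% and 24.0% of all genes), among them Fgf8 (-1.14, adjusted p = 0.00104) and Fgf17 (0.77, adjusted p = 0.00961). At 14% for 6 h Fgf20 (-2.15, adjusted p = 6.81e-06) and Fgf8 (-1.39, adjusted p = 0.000404) fell. None of 11 FGF receptors and adaptors passed at 7% oxygen, and of 16 response genes of the FGF and ERK pathway 4 rose and 4 fell with a median of -0.01. These counts stand beside 42% of all genes past the test. Egr1, an immediate early transcription factor, fell (-2.06, adjusted p = 9.18e-05) and Spry1, a feedback inhibitor of receptor tyrosine kinases, rose (0.46, adjusted p = 0.00324).

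Likeness of pattern was described by Pearson's r of log2(FPKM + 0.1) over the 42 mice among 13280 genes, with no test, since the mice fall into 7 groups that move together. Edn2 was most like Gfap (0.872), Kcne2 (0.827), Ankzf1 (0.808), Stat3 (0.805) and Mxi1 (0.792). Lif was most like Socs3 (0.747), Osmr (0.681), Srxn1 (0.672), Adamts1 (0.653) and Cyr61 (0.646). Fgf2 was most like Map3k1 (0.883), Pdk1 (0.873), Rlf (0.872), Ero1l (0.862) and Jmy (0.862). After subtraction of the group means Gfap was still first for Edn2 (0.798) and Socs3 for Lif (0.671), whereas Lrrc2 (0.706), Nes (0.667) and Gfap (0.654) led for Fgf2. Between the 3 ligands the values were 0.757 for Edn2 and Fgf2, 0.576 for Lif and Fgf2 and 0.454 for Edn2 and Lif over all mice, and 0.538, 0.379 and 0.11 after subtraction of the group means.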

How the data were processed

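One retina of each mouse was sequenced (paired ends). The authors aligned the reads with STAR (named in the submitters' processing notes) to GRCm38 and deposited 1 table with 2 values per gene and mouse. The first is FPKM, which the authors computed; its counting tool and gene lengths are not given in the sources used here. The second, per the file headers a normalized count, is a signal that the authors deposited after scaling each library's reads per gene with 1 factor. In 36 of 42 libraries whole reads were recovered from its steps (100% of low values whole within 0.1 steps). The other 6 took no part in tests on reads, so edgeR compared fewer mice. They were replicates 3 and 5 of Normoxia, 4 of 07-06h-ZH, 6 of 14-06h-ZH, 1 of 14-11w-ZH and 4 of 14-48h-JFJ. p-values measure the spread between 6 mice a group.

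Each of the 10 comparisons was fitted on its 12 mice with limma 3.58.1 (R 4.3.3; trend and robust options) on log2(FPKM + 0.1), for genes at 0 in at most 3 mice of each group, with Benjamini-Hochberg adjustment over all genes tested. A gene passed at an adjusted p of 0.05 or less. The study itself used edgeR; edgeR 4.0.16 on the recovered reads, other pseudocounts, filters and scalings, the normalized counts, 1 fit of all groups, a replicate block, a term for sex read from Y-linked genes and leaving out each mouse (8 comparisons) were alternatives. Mice with Y-linked expression only, and mice low in lens markers only, were added after seeing the data. The 9 genes are named throughout; of each pathway list up to 4 genes with the smallest p were named per comparison, and the 5 genes most like Edn2, Lif and Fgf2. Members and lists were chosen with earlier results of these data known. Scripts were tested on simulated data. Upstream windows came from RefSeq (GRCm38.p6) and coordinates from the table, which match GENCODE for all 9 genes. Samples came from GEO's titles, which give group and replicate; sex is not in the labels used here.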

Additional observations from a re-analysis of the deposited data

Results flagged for a closer look

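One value stood far from its group: Cntf was 11.1 FPKM in replicate 1 of 14-48h-ZH, while the other 5 mice had 3.61 to 5.40 FPKM. Of 63 groups of 6 values looked at, chance alone sets such a value apart in about 1 of 20 groups. That mouse was high in lens markers.

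Several members differed between hypoxic groups by a direct test (limma, adjusted p of 0.05 or less), given here as log2 differences. At 6 h 7% differed from 14% oxygen by 1.43 for Edn2, 0.82 for Clcf1, 0.47 for Fgf2, -0.45 for Il6st, -0.48 for Lifr and -0.66 for Cntf. For Edn2, 3 of 6 mice at 7% lay above the highest mouse at 14% oxygen, which had 8.03 FPKM. At 14% oxygen 48 h differed from 6 h by -0.48 for Fgf2. At 48 h JFJ differed from Zurich by 1.30 for Edn2, 0.33 for Clcf1, 0.27 for Fgfr1, -0.31 for Il6st and -0.13 for Lifr. The long exposures, 14-07w-JFJ and 14-11w-ZH, differed by 0.23 for Fgf2. The JFJ and Zurich exposures also differ in code series, light cycle and, for the long ones, in duration. The paper further states that JFJ mice were transported to the station and that hypobaric retinas were dissected with no microscope. None of these can be told apart from pressure.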

How the results depend on the processing

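None of the members that passed a test in the main analysis or in an alternative changed direction in any alternative; 702 such values of single members kept their side of the threshold, 123 lost it and 36 gained it. The counts of members past the test (main counts 5, 5, 1, 0, 1 and 1 over Normoxia in the order of the groups above, and 6, 1, 5 and 1 between hypoxic groups) moved as follows. edgeR on recovered reads gave 3 after 6 h at 7% oxygen, 2 after 6 h and 3 after 48 h at 14%, 0 for 14-48h-JFJ, 3 for JFJ over Zurich at 48 h and 0 for the long exposures; over all genes it called 36 higher and 106 lower for 14-11w-ZH (main analysis 345 and 331) and 129 and 346 for 14-48h-JFJ (457 and 454). In 14-07w-JFJ it called 85 and 77, and the main analysis 347 in all. A term for sex gave 2 for 14-06h-ZH and 0 for 14-48h-JFJ, 14-07w-JFJ and the long exposures. Mice with Y-linked expression only gave 2 for 14-06h-ZH, 0 for both JFJ groups, 1 for 7% over 14% oxygen, 0 for 48 h over 6 h and 1 for JFJ over Zurich at 48 h. Without mice high in lens markers the counts were 2 for 14-06h-ZH, 2 for 14-48h-JFJ (Cntf and Fgfr1, not Edn2) and 0 for 14-07w-JFJ, 48 h over 6 h and the long exposures. Both alternatives have fewer mice, and where the former left 3 against 3 mice the filter on zeros removed no gene, so 25700 were tested. Otherwise the cause was not tested. A mean FPKM of at least 1 gave 2 for 14-48h-ZH and 1 for 14-11w-ZH. Median-of-ratios scaling gave 3 for 14-48h-ZH, 1 for 14-11w-ZH, 3 for JFJ over Zurich at 48 h and 0 for the long exposures; normalized counts gave 3, 2, 3 and 0 there and 0 for 14-48h-JFJ. The fit of all 7 groups gave 1 for 14-11w-ZH, 0 for the long exposures and 2 for 14-48h-JFJ. Without trend and robust options 14-48h-JFJ, 14-07w-JFJ and the long exposures gave 0. Pseudocounts of 1 and 0.01, no filter and the replicate block also gave 0 for the long exposures.

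With the replicate block the counts were 4, 4, 1, 0, 1 and 1 over Normoxia and 6, 1, 6 and 0 between hypoxic groups. The labels do not say that a number pairs mice, and in no comparison did all 6 pairs correlate above 0.1. Leaving out 1 mouse gave 4 to 5, 3 to 5, 1 to 2, 0 to 1, 0 to 2 and 0 to 1 over Normoxia, 5 to 7 for 7% over 14% oxygen and 1 to 1 for 48 h over 6 h; it was not run for the JFJ comparisons with Zurich. Other scalings moved the share of higher calls over all genes from 27.8% to 47.4% for 14-06h-ZH, 26.2% to 49.4% for 14-48h-ZH, 51.0% to 39.8% for 14-11w-ZH, 50.2% to 37.4% for 14-48h-JFJ, 71.8% to 52.2% for 14-07w-JFJ and 69.6% to 50.5% for the long exposures. Lif rested on 4 to 183 reads in a library.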
